A study of Homo sapiens with 6 samples.

Results

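RNA polymerase I and the factors that assemble ribosomes in the nucleolus were followed as a group of 60 genes. The members were chosen by symbol, as genes of known role at 6 steps of the pathway, with earlier results of these data known. Each of the 60 symbols was found once among the 58051 genes of the count table. They comprised 10 genes of the RNA polymerase I machinery, 5 of the nucleolar scaffold, 6 core proteins of the guide RNA particles, 15 genes of the small subunit processome, 6 of late small subunit maturation and 18 of large subunit assembly.

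The libraries came from HEK293T, an established line of human embryonic kidney origin that expresses the large T antigen of SV40. Cells of the CTRL group received the empty expression plasmid pcDNA3.1-, and cells of the PPK1 group received the same plasmid with ppk1, a bacterial polyphosphate kinase that makes chains of inorganic phosphate. Both groups were transfected transiently with Lipofectamine and harvested 48 h later, so both carried plasmid and reagent and neither was left untransfected. Each group had 3 libraries named B, C and D, and the letter pairs a PPK1 culture with its CTRL culture as biological replicates. All came from this 1 cell line, and the share of cells that took up plasmid is not given in the sources used here. The transgene is no human gene and its transcript was not analysed here.

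Ribosome production starts when RNA polymerase I, brought to the ribosomal DNA by UBTF, the SL1 complex and RRN3, transcribes the long precursor of the ribosomal RNAs. Small nucleolar ribonucleoproteins modify that precursor, the small subunit processome cleaves and folds its first portion, and a separate series of factors builds the large subunit. Proliferating cells such as HEK293T run this pathway at a high rate, and many of its genes are known targets of MYC.

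Total counts per library ranged from 40851783 to 67122986. After a filter on low counts 19574 genes were tested with edgeR's quasi-likelihood test, with the replicate letter as a block. Of them 791 were called higher and 986 lower with ppk1 at a Benjamini-Hochberg adjusted p below 0.05, and with upper-quartile scaling 422 and 933. Differences between matched libraries were wider in pairs C and D, with standard deviations of 0.40 and 0.41 on the log2 scale, than in pair B, at 0.32. Of 8 markers of HEK293 cells VIM was the most abundant, at 478 to 538 CPM (read counts scaled by TMM to a common library size), and PAX2 and LHX1 lay between 2.55 and 4.76 CPM. KRT18 was called higher with ppk1 (log2 difference 0.28, edgeR adjusted p = 0.0113) and NEFL lower (-0.29, 0.00793), and the other 6 did not pass the test. Of 10 markers of other cell types PTPRC, CD3E, KRT5, KRT14 and DCN lay at or below 0.1 CPM in all 6 libraries, APOA1 and PECAM1 below 0.5 CPM and the fibroblast gene COL1A1 at 15.4 to 20.6 CPM. ALB, of hepatocytes, lay at 0.497 to 0.832 CPM in CTRL and 0.215 to 0.271 CPM in PPK1 and was called lower, and VWF, of endothelium, had no count in CTRL and 3 to 7 counts in PPK1 libraries. Their part in the members' results was not tested.

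Transcripts of 10 of the 60 members rose with ppk1, and none was called lower. The 10 were POLR1A of RNA polymerase I, RRP9 and NOC4L of the small subunit processome, RRP12 of late small subunit maturation, and NOP16, EBNA1BP2, DDX56, NIP7, RRS1 and MRTO4 of large subunit assembly. Their log2 differences ran from 0.22 to 0.35, or 16.8% to 27.7% more transcript, with standard errors of about 0.08. Among all genes tested 4.04% were called higher and 5.04% lower. The members are well counted, with a lowest mean of 1203 counts per library, and of the 8647 genes counted as well as that, at a mean count of 1000 or more (a limit chosen after the values were seen), 5.86% were called higher. These values measure the spread between 3 pairs of cultures of 1 line, and in such bulk samples fewer cells of a kind and less RNA per cell cannot be told apart.

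The members as a whole, the 10 called ones included, leaned the same way. Of the 60 log2 differences 50 (83.3%) lay above 0, against 53.1% of all genes tested and 62.7% of the well-counted ones. The median of the members was 0.12 with a range from -0.19 to 0.35. Over all genes tested the median was 0.01, and over the 8647 well-counted genes it was 0.04. At an unadjusted p below 0.05, 22 members were higher and 2 lower, where 12.2% of all genes tested were higher and 11.6% lower, and 17.3% and 8.36% of the well-counted genes. All PPK1 libraries lay above all CTRL libraries for 12 of the 60 members, or 20%, against 13% of all genes tested and 18.4% of the well-counted ones. They lay below for 1 member (12.6% and 9.6%). A higher value in all 3 pairs was found for 19 members, or 31.7%, where 22.6% of all genes tested and 29.5% of the well-counted ones showed it. Both shares of the members thus lie near those of genes counted equally well.

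The size of the shift differed between pairs. The median difference of the members was 0.09 in pair B, 0.21 in pair C and 0.03 in pair D. In these pairs 44, 57 and 33 members (73.3%, 95% and 55%) lay above 0. Of all genes tested 52.0%, 52.9% and 49.9% did, and of the well-counted ones 60.3%, 65.8% and 50.1%. The medians of the well-counted genes were 0.03, 0.07 and 0.0006. Without replicate C no member was called by edgeR, 2 had an unadjusted p below 0.05 and the median was 0.07. The 10 called members still differed by 0.16 (MRTO4) to 0.28 (RRP12) in that fit, against 0.22 and 0.35 with all pairs. Whether the calls were lost through the smaller number of libraries or through the values of pair C was not tested. In the fit without the replicate block no member was called either, 18 had an unadjusted p below 0.05, and the smallest adjusted p was 0.0532, for RRP12. In those 2 fits 0.415% and 0.455% of all genes tested were called higher, and 1.64% and 1.95% lower. Without replicate B 18 members were called higher and 1 lower, where 6.5% and 6.03% of all genes tested were. DESeq2 with the block called 6 of the 10 (1.89% of genes with an adjusted p were called higher), namely RRP12, RRP9, DDX56, EBNA1BP2, NOP16 and POLR1A.

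**Figure D1:**
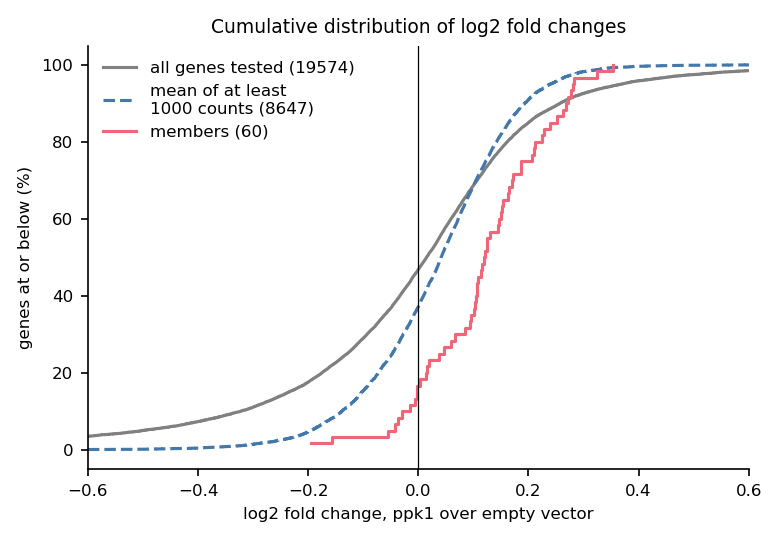
Cumulative share of genes (vertical axis, percent) against the log2 difference between PPK1 and CTRL (horizontal axis) for the 60 members, all 19574 genes tested and the 8647 genes whose mean count was 1000 or more. Up to a difference of about 0.25 the members' curve lies to the right of both others, with its median at 0.12 against 0.01 and 0.04.

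The members' differences also went with base composition. GC content of the members' longest coding transcript ranged from 37.3% to 65.2%, with a median of 47.2%. Across the 60 members it went with the difference in pair D at a Pearson r of 0.83, in pair C at 0.54 and in pair B at -0.38. Across 19463 genes tested these were 0.31, 0.09 and -0.10, and in all these correlations the points share libraries and depth, so no p is given. The 30 members below the median GC had a median difference of 0.06 and held 1 of the 10 calls, while the 30 above it had 0.18 and held 9. All genes tested showed the same split in weaker form, with 1.6% called higher and a median of -0.03 below that GC content, and 5.98% and 0.06 above it. Many of these genes were counted less well than the members, and whether that had a part in their weaker split and correlations was not tested. In pair D 5 of the 30 members below (16.7%) and 28 of the 30 above (93.3%) were higher with ppk1, against 28.2% and 66.8% of all genes tested. None of these differences between members and all genes was tested. With offsets for GC content and length, an alternative chosen after the data were seen, the medians of those sets were 0.10 and 0.14, and 19 members were called higher, including all 10 named above, where 7.96% of all genes tested were called higher. Whether base composition had a part in the calls without offsets was not tested beyond these values.

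**Figure D2:**
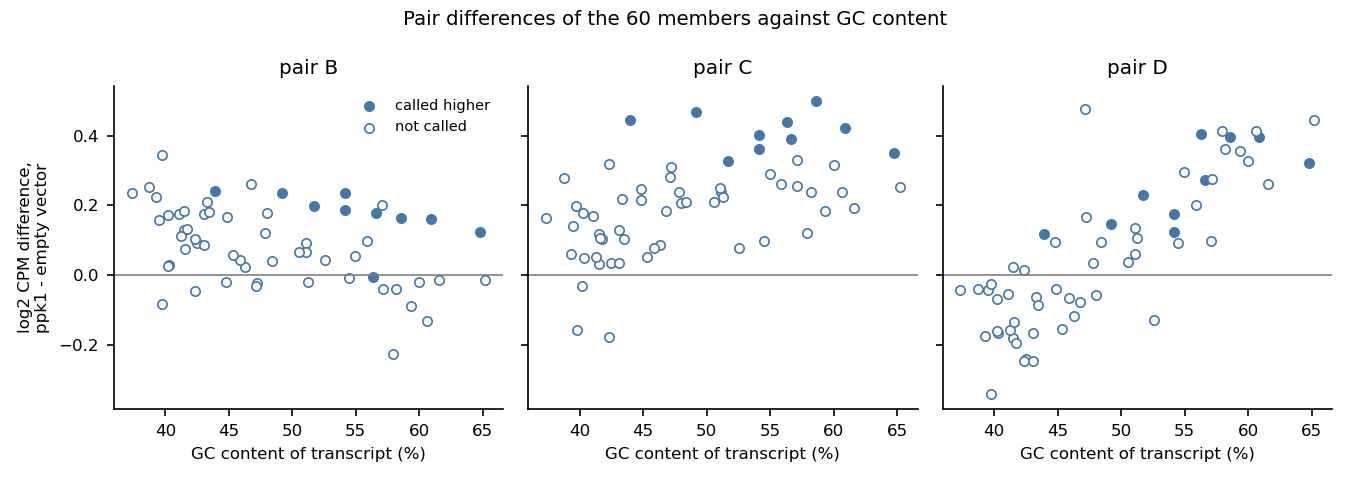
Difference between PPK1 and CTRL on the log2 scale (vertical axis) against GC content in percent (horizontal axis) for the 60 members, in a panel for each of pairs B, C and D. Members with high GC lie higher in pair D (r = 0.83) and pair C (0.54), and lower in pair B (-0.38).

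Steps of the pathway are set side by side by their medians, without a test between them. Large subunit assembly had a median of 0.19, with 6 of 18 members called. The nucleolar scaffold followed at 0.13 with no member of 5 called, the RNA polymerase I machinery at 0.12 with 1 of 10, and the guide RNA particles at 0.11 with no member of 6. The small subunit processome had a median of 0.10 with 2 of 15 called and late small subunit maturation 0.09 with 1 of 6. The steps also differed in median GC content, with 53.4% in large subunit assembly and 52.8% in late small subunit maturation. It was 48.2% in the guide RNA particles, 47.2% in the scaffold, 45.8% in the RNA polymerase I machinery and 42.3% in the processome. Whether base composition had a part in the medians of the steps was not tested. The order of the steps depended on the libraries and the fit. Without replicate D the nucleolar scaffold stood at 0.15 and large subunit assembly at 0.14. Without replicate C the medians of the processome, the scaffold and late small subunit maturation were 0.04, 0.07 and 0.05. Without replicate B those of the guide RNA particles, the RNA polymerase I machinery and the processome were 0.18, 0.07 and 0.06. Large subunit assembly kept the highest median in both of these fits, at 0.15 without replicate C and 0.26 without replicate B. With the GC and length offsets the medians were 0.15 for large subunit assembly and the scaffold, 0.14 for the processome, 0.11 for the RNA polymerase I machinery and the guide RNA particles, and 0.09 for late small subunit maturation. The processome's pair medians were 0.12, 0.14 and -0.04 in pairs B, C and D, and those of large subunit assembly were 0.09, 0.25 and 0.13.

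**Figure D3:**
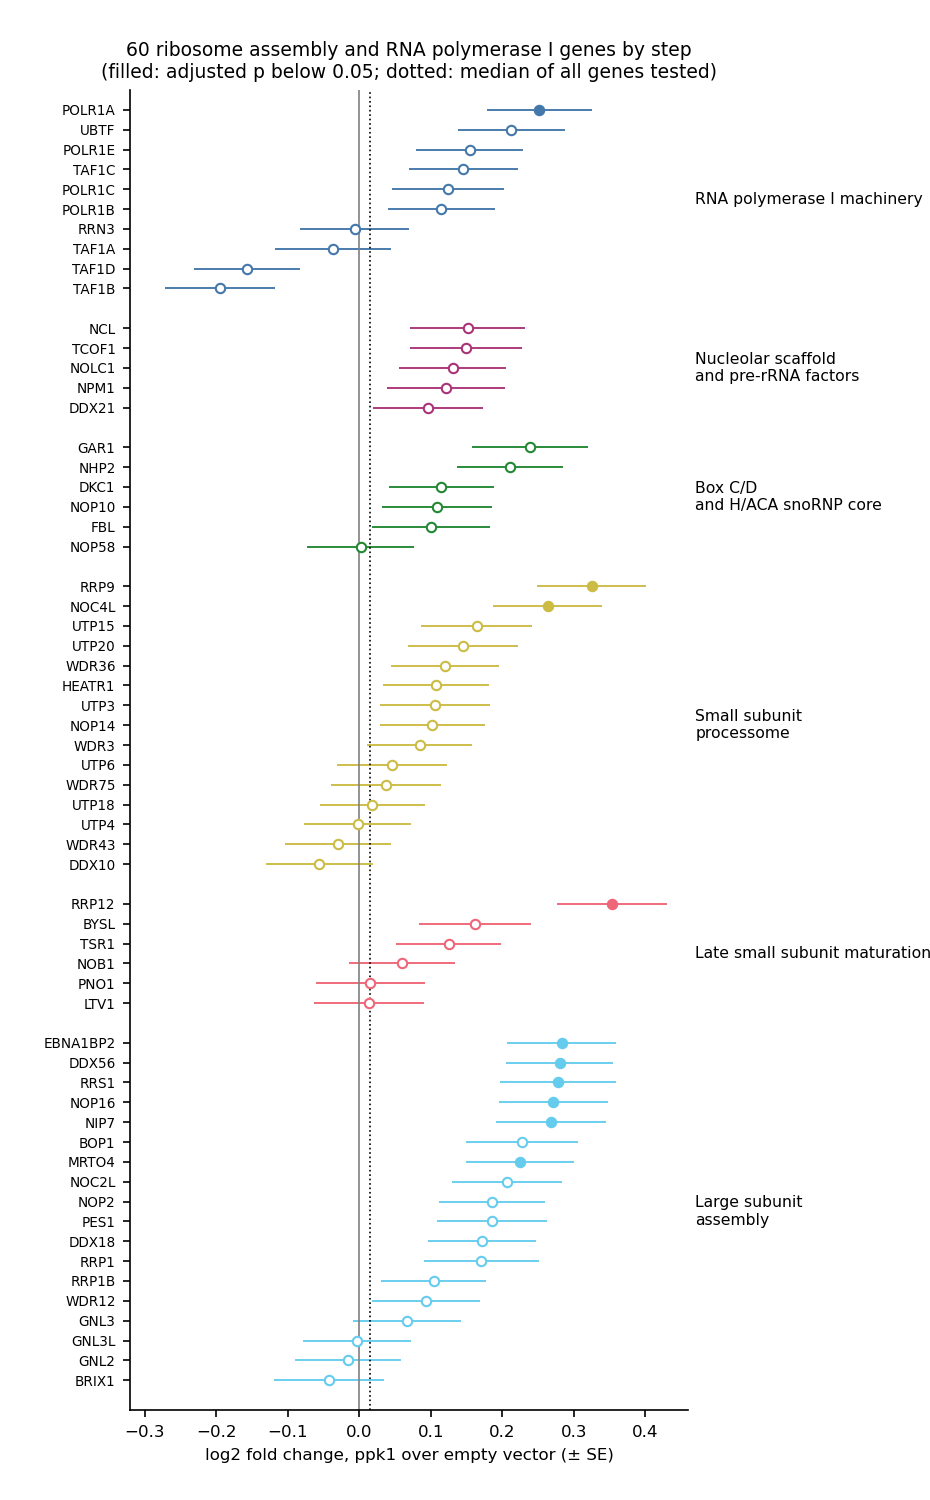
Log2 difference between PPK1 and CTRL for each of the 60 members, grouped by step of the pathway, with standard errors as bars and called members marked. The called members lie between 0.22 and 0.35, and TAF1B at -0.19 is the lowest of all.

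**Figure D4:**
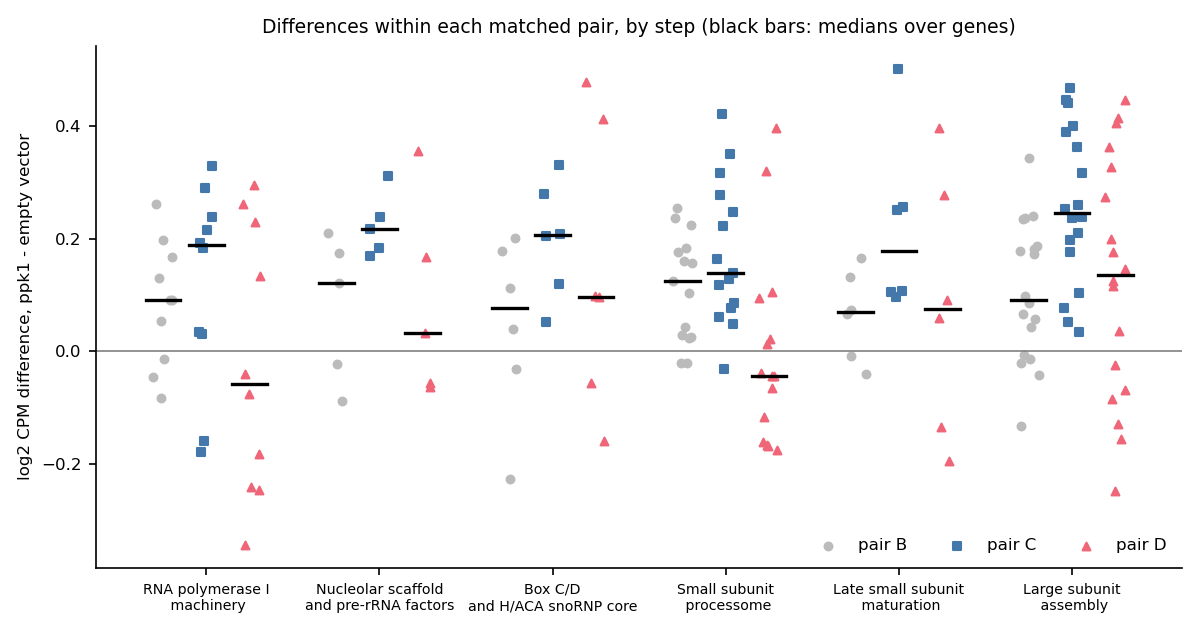
Log2 difference between the matched libraries of pairs B, C and D for each member, by step, with the step's median in each pair as a line. The median of pair C is the highest of the 3 in every step, and in pair D the medians of the RNA polymerase I machinery (-0.06) and the small subunit processome (-0.04) lie below 0.

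Promoter sequence was read where RefSeq gives a start, as the 250 bases before it in build GRCh38.p14. Sequences of 51 members, 8 of the 10 called ones among them, were matched by symbol. The ETS core CCGGAAG, the bases bound by factors such as GABPA and ELK1, was searched on both strands and occurred in 20 of 51 members (39.2%). It occurred in 14.6% of 11458 promoters of genes tested and in 8.82% of all 27305 promoters. No share was taken over promoters of the well-counted genes alone, so the members have no background of equal counts here. The E-box CACGTG, bound by MYC with MAX, occurred in 5 members (9.8%) and in 8.79% of promoters of genes tested. The early growth response motif GCGTGGGCG occurred in none of the 51 and in 1.2% of promoters of genes tested. A match describes these letters only and shows neither binding nor a cause.

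Among the called members the ETS core occurred in RRP9, NOP16, NIP7 and DDX56, and LTV1, whose transcript differed by 0.01, carried it as well. Stretches of RRP9 and LTV1 upstream of any annotated exon are printed as a pair, a member that rose beside one that did not pass the test, 5′ to 3′ on the gene's strand with the match in capitals.
RRP9 chr3:51941942-51942154 (minus strand): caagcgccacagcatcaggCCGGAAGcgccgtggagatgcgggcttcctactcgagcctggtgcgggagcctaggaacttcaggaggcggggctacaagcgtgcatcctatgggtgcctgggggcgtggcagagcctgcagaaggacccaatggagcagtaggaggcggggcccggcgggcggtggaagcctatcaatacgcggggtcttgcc
LTV1 chr6:143843088-143843337 (plus strand): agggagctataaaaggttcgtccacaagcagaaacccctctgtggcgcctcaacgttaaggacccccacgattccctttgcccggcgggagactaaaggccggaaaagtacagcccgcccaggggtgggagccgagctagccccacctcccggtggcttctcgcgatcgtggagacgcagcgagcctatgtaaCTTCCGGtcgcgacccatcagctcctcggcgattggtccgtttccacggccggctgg
The matches of the other called members are printed with their flanks, since DDX56 held 3 of them and NOP16 a palindrome that reads as a match on both strands.
NOP16 chr5:176388599-176388627 (minus strand): ttgtgcacgcCTTCCGGAAGgagtttgtt
NIP7 chr16:69339567-69339593 (plus strand): cgtcacttccCTTCCGGaccacaaggg
DDX56 chr7:44574135-44574158 (minus strand): gggaacgCCGGAAGagccagtgga
DDX56 chr7:44574011-44574037 (minus strand): cgtccgagtaCCGGAAGcctaggccgc
DDX56 chr7:44573989-44574015 (minus strand): gccgccagcaCTTCCGGgaagtgactt

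In the RNA polymerase I machinery POLR1A, the gene of the largest and catalytic subunit, rose. Its CPM was 114, 134 and 116 in CTRL B, C and D, and 131, 168 and 136 in PPK1 B, C and D. Each PPK1 library was above its matched control, but PPK1 B lay below CTRL C, so the groups overlapped. The log2 difference was 0.25 ± 0.07 (SE) with an edgeR adjusted p of 0.0202. POLR1B, the other large subunit, differed by 0.11, POLR1C by 0.12 and POLR1E by 0.15, and none of the 3 passed the test. POLR1E, which with its partner helps the enzyme at initiation and elongation, lay at 53.1 to 55.4 CPM in CTRL and 58.3 to 62.6 CPM in PPK1, without overlap. Per kilobase of transcript POLR1A stood at 9.52 CPM in CTRL, the lowest of the 10, and TAF1D at 135, the highest.

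UBTF bends the ribosomal promoter and keeps ribosomal DNA open. It was counted at 118, 125 and 108 CPM in CTRL and 123, 153 and 132 CPM in PPK1 B, C and D. PPK1 C and D lay above all controls and PPK1 B did not, and the difference of 0.21 missed the threshold (edgeR adjusted p = 0.0618). The 4 TAF1 genes encode the SL1 subunits that join TBP at the promoter. Their median was -0.10, or -0.05 with the GC and length offsets, and none passed the test. TAF1B measured 36.3, 37.8 and 43.6 CPM in CTRL B, C and D, and 34.2, 33.8 and 34.3 CPM in PPK1.

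All 3 PPK1 libraries of TAF1B lay below all 3 controls, making it the single member with that order. Its difference of -0.19 did not pass over all genes (edgeR adjusted p = 0.103), though it did without replicate B (0.0463). In that fit 18 members were called higher, where 6.5% of all genes tested were. UBTF (edgeR adjusted p = 0.0156), GAR1 (0.00105) and BOP1 (0.00274) were among these 18. TAF1D read 280, 254 and 312 CPM in CTRL B, C and D against 271, 225 and 263 CPM in PPK1. It was lower in each pair, while the groups overlapped, and the difference of -0.16 had an edgeR adjusted p of 0.182. Small nucleolar RNAs lie in the TAF1D gene and cover 11.2% of its exonic bases on the same strand. TAF1A differed by -0.04 and TAF1C by 0.15, and RRN3, the initiation factor that links polymerase and promoter, by -0.01. RRN3 shares 25% of its 50-base stretches with pseudogenes and is uncertain for that reason.

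Of the nucleolar scaffold none passed the test. TCOF1, the treacle protein that holds polymerase and pre-rRNA factors together, had 360, 332 and 276 CPM in CTRL B, C and D and 339, 377 and 353 CPM in PPK1. It was lower with ppk1 in pair B and higher in C and D, with overlap between the groups and a difference of 0.15 (edgeR adjusted p = 0.237). NCL, or nucleolin, an RNA-binding protein of the nucleolus, also differed by 0.15, from 1367 ± 37.6 to 1523 ± 149 CPM (SD, n = 3; edgeR adjusted p = 0.245). NPM1, a nucleolar chaperone, was the most abundant member per kilobase, at 1447 CPM per kilobase in CTRL. It differed by 0.12, and 18.9% of its 50-base stretches recur in pseudogenes or other genes. NOLC1, a scaffold for guide RNA particles, and the helicase DDX21 differed by 0.13 and 0.10.

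The guide RNA particles methylate and pseudouridylate the precursor. GAR1 and NHP2, both of the H/ACA core that isomerises uridine, came closest to the threshold. GAR1 had 43.1, 44.0 and 35.9 CPM in CTRL B, C and D, and 42.2, 53.4 and 50.0 CPM in PPK1. Its groups overlapped through PPK1 B, and the difference was 0.24 (edgeR adjusted p = 0.0503).

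NHP2 had 180, 187 and 198 CPM in CTRL and 207, 236 and 212 CPM in PPK1. No PPK1 value fell among the controls, and the difference of 0.21 had an edgeR adjusted p of 0.0619. NHP2 shares 27.4% of its exonic bases with RMND5B on the opposite strand, so reads of both cannot be told apart if strand was not used. DKC1, the pseudouridine synthase, differed by 0.11, with 252 to 256 CPM in CTRL and 263 to 292 CPM in PPK1, and NOP10 also by 0.11, neither passing the test.

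FBL, or fibrillarin, is the methyltransferase of the C/D particles and the most abundant of these 6 genes per kilobase, at 272 CPM per kilobase. Its pairs went apart, by -0.23 in B, 0.12 in C and 0.41 in D, for a difference of 0.10 that did not pass the test. NOP58, its partner, differed by 0.00.

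**Figure D5:**
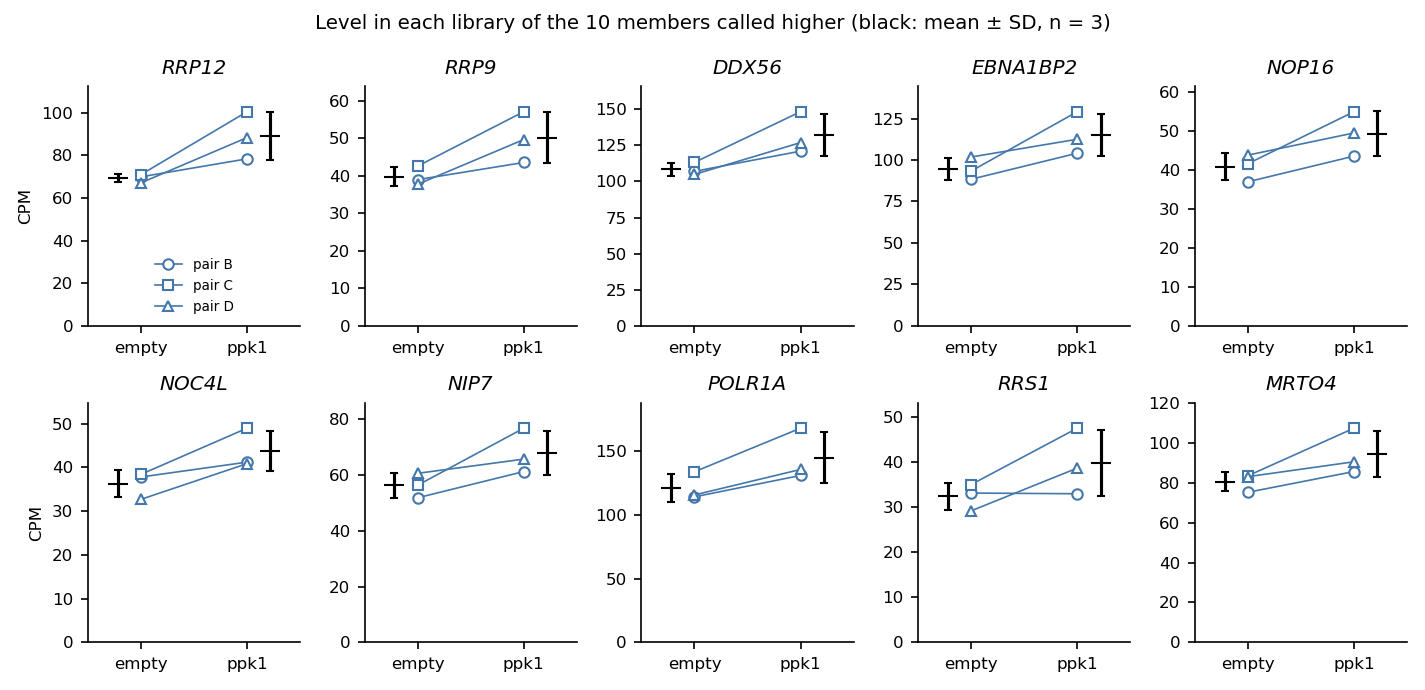
TMM-scaled CPM (vertical axes, from 0) of the 10 called members in each library, empty vector (CTRL) and ppk1 (PPK1), with the mean ± SD of each group in black and matched libraries B, C and D joined by lines. PPK1 C is the highest library for all 10, and for RRS1 the line of pair B is level.

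In the small subunit processome 2 of 15 members rose. RRP9, a protein specific to the U3 guide RNA that docks the processome on the precursor, had 39.0, 42.6 and 37.8 CPM in CTRL B, C and D. In PPK1 it had 43.6, 57.1 and 49.7 CPM. All PPK1 libraries lay above all controls, and the difference was 0.33 ± 0.08 (SE; edgeR adjusted p = 0.00341).

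NOC4L, which binds NOP14 in the nascent small subunit, had 37.8, 38.4 and 32.7 CPM in CTRL and 41.2, 49.0 and 40.9 CPM in PPK1. The groups did not overlap, and the difference of 0.26 ± 0.08 (SE) had an edgeR adjusted p of 0.0190. NOP14 itself differed by 0.10, from 154 ± 4.46 to 165 ± 16.3 CPM (SD, n = 3), and did not pass the test.

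The scaffolding complexes of the processome held no called member in the fit without GC and length offsets. UTP-A, the first complex to bind the precursor, was represented by UTP4, UTP15, WDR43, WDR75 and HEATR1, with a median of 0.04 and pair medians of 0.18, 0.09 and -0.12 in B, C and D. UTP-B, which binds next to the U3 RNA, was represented by UTP6, UTP18, WDR3 and WDR36, with 0.07 overall and 0.17, 0.13 and -0.05 by pair. With the GC and length offsets the medians were 0.10 and 0.13. In that fit UTP15 (edgeR adjusted p = 0.00626), WDR36 (0.0132), HEATR1 (0.0258) and WDR3 (0.0312) were called higher and the others were not. Of all genes tested 7.96% were called higher there. None of these 9 genes passed the test without offsets when all pairs were used. UTP15 passed without offsets once replicate D was left out (edgeR adjusted p = 0.0330). For the 4 of UTP-B PPK1 D lay below CTRL D.

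UTP18 was the most abundant processome member per kilobase, at 57.1 CPM per kilobase in CTRL, and differed by 0.02. UTP20, a very large scaffold protein, was the least abundant at 8.70 CPM per kilobase. Its pair differences were 0.10, 0.32 and 0.01, with a log2 difference of 0.15 that did not pass the test. HEATR1, which is known to be needed for polymerase I transcription as well, had 325 to 368 CPM in CTRL and 369 to 397 CPM in PPK1, a difference of 0.11. LGALS8 covers 23.2% of the exonic bases of HEATR1 on the opposite strand. The helicase DDX10 differed by -0.06 and UTP3 by 0.11.

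Among late small subunit factors RRP12 had the highest fold change of all 60 members. It is a HEAT-repeat protein that takes part in the export of pre-ribosomal subunits. RRP12 had 69.9, 70.9 and 67.1 CPM in CTRL B, C and D, and 78.3, 100 and 88.3 CPM in PPK1. The controls lay close together and every PPK1 library stood above them. The difference was 0.35 ± 0.08 (SE), or 27.7% more transcript, with an edgeR adjusted p of 0.00143.

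The other 5 did not pass the test. BYSL, or bystin, needed for release of the late precursor, had 55.0, 55.0 and 47.9 CPM in CTRL and 53.5, 65.7 and 58.0 CPM in PPK1. PPK1 B lay among the controls, and the difference of 0.16 had an edgeR adjusted p of 0.192. TSR1 differed by 0.13 and lay at 211 to 219 CPM in CTRL and 220 to 261 CPM in PPK1. NOB1, the nuclease that makes the final cut of the small subunit RNA, was the most abundant per kilobase at 53.4 CPM per kilobase and differed by 0.06. Its partner PNO1 differed by 0.02 and the export adaptor LTV1 by 0.01. LTV1 shares 30.4% of its 50-base stretches with neighbouring transcripts.

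Large subunit assembly held 6 of the 10 called members. DDX56, a nucleolar helicase of large subunit precursors, had 107, 113 and 105 CPM in CTRL B, C and D, and 121, 148 and 127 CPM in PPK1. The groups did not overlap, and the difference was 0.28 ± 0.07 (SE; edgeR adjusted p = 0.00975). EBNA1BP2, an early nucleolar assembly factor, had 88.4, 93.3 and 102 CPM in CTRL and 104, 129 and 113 CPM in PPK1. Here too no PPK1 library fell among the controls, with a difference of 0.28 ± 0.08 (SE; edgeR adjusted p = 0.0111). CFAP57 covers 18.8% of its exonic bases on the opposite strand.

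NIP7, a small RNA-binding protein needed for precursor processing, had 51.8, 56.3 and 60.5 CPM in CTRL and 61.1, 76.7 and 65.6 CPM in PPK1. CTRL D and PPK1 B nearly met, yet the groups did not overlap, and the difference was 0.27 (edgeR adjusted p = 0.0190). NOP16 had 36.9, 41.5 and 43.7 CPM in CTRL and 43.5, 54.8 and 49.4 CPM in PPK1. PPK1 B lay just under CTRL D, so the groups overlapped, although each pair was higher with ppk1 (0.27, edgeR adjusted p = 0.0152). Opposite-strand exons cover 20.2% of the exonic bases of NIP7 (COG8) and 19.9% of those of NOP16 (ARL10 and HIGD2A).

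RRS1 helps bring the 5S particle into the large subunit. It had 33.1, 35.0 and 29.2 CPM in CTRL B, C and D, and 32.9, 47.5 and 38.6 CPM in PPK1. Pair B was level (-0.01) and pairs C and D were higher with ppk1 (0.44 and 0.41), with a difference of 0.28 ± 0.08 (SE; edgeR adjusted p = 0.0202). MRTO4, which holds the place of the stalk protein P0, had 75.2, 83.5 and 83.0 CPM in CTRL and 85.6, 107 and 90.5 CPM in PPK1. Its groups did not overlap, and the difference of 0.22 was the closest of the called ones to the threshold (edgeR adjusted p = 0.0494). With upper-quartile scaling RRS1 and MRTO4 no longer passed, and 8 members were called higher (2.16% of all genes tested).

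The PeBoW complex, which joins PES1, BOP1 and WDR12 in processing of the large subunit precursor, had a median of 0.19 with pair medians of -0.01, 0.24 and 0.36. BOP1 differed by 0.23 (edgeR adjusted p = 0.0548), PES1 by 0.19 and WDR12 by 0.09. BOP1 had 121, 124 and 104 CPM in CTRL B, C and D, and 119, 148 and 142 CPM in PPK1, with PPK1 B among the controls. WDR12 was the least abundant large subunit member per kilobase, at 10.3 CPM per kilobase, and its pair D lay at -0.07 where those of PES1 and BOP1 lay at 0.36 and 0.45. NOC2L, a partner of the Noc complexes, differed by 0.21 (edgeR adjusted p = 0.0789) and NOP2, an rRNA methyltransferase, by 0.19. NOP2 shares 49.3% of its 50-base stretches with an overlapping transcript, AC006064.6, so its value is uncertain.

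The GTPases of the large subunit showed small differences. GNL3, or nucleostemin, was the most abundant large subunit member per kilobase at 199 CPM per kilobase and differed by 0.07, GNL2 by -0.02 and GNL3L by 0.00. BRIX1 differed by -0.04. The helicase DDX18 had 153, 179 and 215 CPM in CTRL and 195, 205 and 211 CPM in PPK1, with overlap and a difference of 0.17 that did not pass the test. RRP1 differed by 0.17, with pairs at -0.13, 0.24 and 0.41, and its relative RRP1B by 0.10, with pairs at 0.07, 0.21 and 0.04.

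Other genes of the pathway were listed by role, with earlier results of these data known. They were read in the same fit, in which 4.04% of all genes tested and 5.86% of the well-counted ones were called higher. Of 11 further RNA polymerase I subunits and cofactors 3 rose and none fell, with a median of 0.12. CD3EAP, the partner of POLR1E, differed by 0.38 (edgeR adjusted p = 0.0011), MYBBP1A, a nucleolar corepressor, by 0.31 and the shared subunit POLR2L by 0.26. Exons of ERCC1 and PPP1R13L cover 45.1% of CD3EAP on the opposite strand, and those of CD151 cover 22.5% of POLR2L. Of 31 further small subunit factors 6 rose and none fell, with a median of 0.12, among them NOL6 at 0.36, IMP3 at 0.29 and UTP14A at 0.27. Opposite-strand exons, of SNX33 among others, cover 59.3% of the exonic bases of IMP3. Of 42 further large subunit factors 2 rose and none fell, with a median of 0.10, a share of calls near that of all genes. These were the methyltransferase FTSJ3 at 0.25 (edgeR adjusted p = 0.0220) and the subunit joining inhibitor EIF6 at 0.23 (0.0458). EIF6 did not pass with upper-quartile scaling (edgeR adjusted p = 0.0745), without the replicate block (0.14), without replicate C (0.67) or with DESeq2 (adjusted p = 0.069). Nor did it pass with RLE scaling (edgeR adjusted p = 0.0534), with no filter on low counts (0.0709) or with a filter at a mean count of 50 (0.0541). It passed without replicate B (edgeR adjusted p = 0.0453), without replicate D (0.0438) and with the GC and length offsets (0.0416). The call of EIF6 also held with mitochondrial genes left out (edgeR adjusted p = 0.0458).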

How the data were processed

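Gene-level counts of 6 libraries were deposited by the authors as 1 table of whole numbers. Per the submitters' processing notes the tools used include bcl2fastq 2.20, Trimmomatic, STAR, HTSeq, edgeR, DESeq, Cufflinks and Cuffdiff, with no role or order stated, and the build, annotation, strand setting and treatment of multiply mapped reads are not given in the sources used here.

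From the counts, genes were filtered with filterByExpr (minimum count 10), scaled by TMM and tested with edgeR 4.0.16 in R 4.3.3 by the quasi-likelihood test, with the replicate letter as a block and Benjamini-Hochberg adjustment over all 19574 genes tested. DESeq2 1.42.0 served as an alternative. The block follows the series' design text, in which a letter marks matched biological replicates. Deviations from group means correlated at 0.11, 0.14 and 0.05 within letters B, C and D over all genes tested, and at -0.12 to -0.01 between letters. The biological coefficient of variation was 6.82%. Scripts were tested on simulated data.

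Levels per kilobase use the longest coding transcript of GENCODE 29, which held 99.0% of the table's gene IDs, and promoters come from RefSeq (GRCh38.p14). Overlaps and shared 50-base stretches come from the same GENCODE release.

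The members and all lists were chosen with earlier results of these data known. Genes named were every called member, in steps with fewer than 2 calls the 2 members of smallest p, members lower at an unadjusted p below 0.05, the most and least abundant member per kilobase of each step, and at most 3 called genes of each further list. The subunits of RNA polymerase III, 1 of the further lists, count among the calls over these lists but are not reported here. Other members are named to account for all 60. The complexes SL1, H/ACA, UTP-A, UTP-B and PeBoW were set apart after the values were seen.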

Additional observations from a re-analysis of the deposited data

How the results depend on the processing

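Counts of calls moved with the replicate block, with the tool and with 1 pair of libraries. Without the replicate block edgeR called 470 genes, no member and no gene of the further lists, and DESeq2 with the block called 755, 6 and 7. GC and length offsets with the replicate block, chosen after the data were seen, gave 2933, 19 and 35. Upper-quartile scaling gave 9 genes of the further lists. Leaving out 1 replicate letter at a time gave 406 to 2435 genes, 0 to 19 members and 0 to 23 genes of the further lists, with the lowest counts without C and the highest without B. The members' median ran from 0.07 to 0.13 over those 3 fits. Among 275 values of 25 named members under 11 alternatives, 3 reversed. FBL ran from -0.0758 to 0.265 when 1 letter was left out, lowest without replicate D. UTP18 ran from -0.0102 (without replicate C) to 0.0387, and was -0.0034 with upper-quartile scaling. Of 110 values of the 10 called members, 78 stayed past the threshold and 32 did not, all in the same direction. The cause of these changes was not tested. Depth was ample, with at least 986 counts for every member in every library, and the 3 pairs limit the precision, with standard errors of 0.073 to 0.083.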

Other observations

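A neighbouring machinery was read from a further list. Of 15 genes of the nuclear exosome, which trims the ends of ribosomal RNA precursors, and XRN2, 1 fell and none rose, with a median of 0.03, where 4.04% of all genes tested were called higher and 5.04% lower. A count of 1 in 15 lies near that share. That gene was EXOSC9, a ring subunit, at 120 ± 17.6 CPM in CTRL and 100 ± 5.34 CPM in PPK1 (log2 difference -0.25, edgeR adjusted p = 0.0300). Its pair differences were -0.08, -0.24 and -0.42 in B, C and D. EXOSC9 did not pass without the replicate block (edgeR adjusted p = 0.184), without replicate C (0.418), without replicate D (0.105) or with DESeq2 (adjusted p = 0.0579). It passed in the other alternatives, such as without replicate B (edgeR adjusted p = 0.00482).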
